A study of Mus musculus with 15 samples.

Results

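The 9 genes described here are the C/EBP transcription factor genes Cebpa, Cebpb, Cebpd, Cebpe and Cebpg and 4 further regulators of myeloid fate, Irf8, Gfi1, Gfi1b and Id2. They were chosen by gene symbol from the 23359 genes in the deposited comparison tables, with earlier results of these data known. RNA-seq was run on leukemia stem cells from mice with blast-crisis chronic myeloid leukemia, taken from gonadal adipose tissue (AT), blood (BL), spleen (SPL) and the marrow (BM). The leukemia was driven by the human fusion oncogenes BCR-ABL and NUP98-HOXA9, and cells were collected 12 days after leukemia cells had been transplanted into recipient mice. Their normal counterparts came from normal bone marrow (NBM). Each of the 5 groups had 3 libraries, all from females aged 3 months. The labels give the NBM libraries the same strain entry and the same transplantation text as the leukemic ones, and only their titles and source set them apart. No sort gate is named for any group, and whether replicate libraries stem from different animals is not stated, in which case the p-values may measure technical spread only. Which regulators the leukemia cells carry at each site, and how these differ from normal marrow, is the question the groups allow.

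C/EBP proteins are basic leucine zipper factors that bind DNA as dimers. C/EBPα is required for the step from common myeloid to granulocyte and monocyte progenitors, C/EBPε for the late granulocyte and its secondary granules, and C/EBPβ and C/EBPδ for emergency granulopoiesis, macrophages and inflammatory gene induction, while C/EBPγ lacks an activation domain and acts mainly as a dimer partner. IRF8 directs progenitors toward monocytes and dendritic cells and away from granulocytes, and loss of its expression is a known feature of chronic myeloid leukemia. GFI1 and GFI1B are closely related zinc finger repressors, the former used in granulocytes and lymphoid cells and the latter in erythroid cells, megakaryocytes and their progenitors. ID2 has a helix-loop-helix domain but no DNA binding domain, and it blocks E proteins by pairing with them.

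The promoters of Irf8, Gfi1b, Cebpb and Id2, each called in 4 or more comparisons and present in the table used, are shown first, so that matches to elements bound by the families described here, and their absence, can be seen. The 250 bases before the annotated start were taken from RefSeq on GRCm38.p6, which held an entry for 7 of the 9 members. Irf8 and Gfi1 each had a further start with its own window, and that of Irf8 is not printed. Capitals mark matches, on either strand, to 7 short motifs: the C/EBP core TTGCNNAA, the STAT element TTCNNNGAA, the GFI core AAATCA, the GATA core AGATAA, the PU.1 core GAGGAA, the cyclic AMP element TGACGTCA and a paired IRF element (GAAA, any 2 bases, GAAA).
Irf8, chr8:120736108-120736357, plus strand: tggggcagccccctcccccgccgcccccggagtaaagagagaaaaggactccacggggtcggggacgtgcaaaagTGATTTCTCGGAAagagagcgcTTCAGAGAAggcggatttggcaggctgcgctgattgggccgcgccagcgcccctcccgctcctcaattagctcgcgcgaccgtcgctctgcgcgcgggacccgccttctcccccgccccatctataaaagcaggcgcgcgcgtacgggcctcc
Gfi1b, chr2:28621983-28622232, minus strand: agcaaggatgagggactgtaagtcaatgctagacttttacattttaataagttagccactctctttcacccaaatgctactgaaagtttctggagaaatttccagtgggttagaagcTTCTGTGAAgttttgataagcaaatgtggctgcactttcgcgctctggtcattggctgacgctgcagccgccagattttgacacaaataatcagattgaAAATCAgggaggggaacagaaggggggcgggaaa
Cebpb, chr2:167688665-167688914, plus strand: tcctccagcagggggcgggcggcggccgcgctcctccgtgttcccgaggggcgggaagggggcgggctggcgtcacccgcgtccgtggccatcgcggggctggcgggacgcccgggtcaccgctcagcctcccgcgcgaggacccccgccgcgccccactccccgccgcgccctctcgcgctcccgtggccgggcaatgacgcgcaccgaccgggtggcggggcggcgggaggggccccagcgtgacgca
Id2, chr12:25096093-25096342, minus strand: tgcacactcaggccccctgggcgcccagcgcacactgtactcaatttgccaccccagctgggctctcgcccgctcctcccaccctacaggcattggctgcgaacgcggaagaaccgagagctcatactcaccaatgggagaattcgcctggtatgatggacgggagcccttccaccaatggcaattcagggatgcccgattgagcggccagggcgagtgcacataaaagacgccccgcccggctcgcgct

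The Irf8 window shown held 2 STAT elements, TTCTCGGAA 171 bases and TTCAGAGAA 153 bases before the start, and a GFI core on the other strand, TGATTT, that overlaps the first of them. The further Irf8 window, chr8:120738389-120738638, held no STAT element and only a GFI core, TGATTT, 226 bases before its start. The Gfi1b window held the STAT element TTCTGTGAA 133 bases before the start and the GFI core AAATCA 34 bases before it. The Cebpb and Id2 windows held none of the 7 motifs. Among 32817 promoter windows of the same length, 7.01% held the STAT element, 12.4% the GFI core, 9.57% the C/EBP core, 9.99% the GATA core, 23.3% the PU.1 core, 2.97% the IRF element and 1.55% the cyclic AMP element. The C/EBP core was found among the members in Gfi1 alone, as TTGCTGAA 143 bases before the start in the window chr5:107725806-107726055. The further Gfi1 window, chr5:107724344-107724593, did not hold it. The windows differed in base composition, from 44.4% G and C in Gfi1b to 81.6% in Cebpb, where the median over all windows was 52.4%. These are matches of letters and not measured binding. The GATA core was searched as AGATAA only, and the Gfi1b window holds TGATAA, which that search leaves unmarked. A window without a mark is thus not shown to lack a site.

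All levels are the authors' pooled FPKM of a group, that is, fragments scaled to transcript length and library size, with the lower and upper bounds the authors deposited at 2 SD on either side in parentheses. Each fold is a log2 ratio, with the group named first as numerator, and was taken with its q-value from the authors' deposited tables; ± gives the standard error that their test statistic implies. A gene was called, and is said to have risen or fallen, when it was tested and its q-value was below 0.05. Counts for a gene list are out of all its genes found unless the number tested is given, whereas background shares are over tested genes only. Fewer list genes were tested in some lists. These were between 10 and 13 of 14 on the IRF8 list, 11 of 12 on the GATA list and between 8 and 11 of 12 on the inflammatory list. The pooled columns summed to between 8.96e+06 (SPL) and 1.96e+07 (AT) estimated counts, and between 7540 (AT) and 8233 (NBM) genes reached an FPKM of 1. Of 9 stem and progenitor markers, between 6 (BL) and 9 (BM) reached an FPKM of 1. By call, 1 rose and 4 fell in BL and in AT against NBM, where 34.4% and 23.4% of all tested genes were called. In BM against NBM 2 rose and 2 fell (16.0%), and in SPL against NBM 2 rose and 3 fell (12.6%). In BL against BM 1 rose and 4 fell (33.3%), and in AT against BM 0 rose and 5 fell (22.8%). Among them Kit had an FPKM of 10.4 in NBM, 2.93 in BM, 4.10 in SPL, 2.26 in BL and 1.64 in AT. Mast cell and basophil markers were abundant in all 5 groups, with a summed FPKM between 569 and 817 that came mostly from the basophil protease genes Prss34 and Mcpt8, while other markers on that list differed between groups as given beside Gfi1b. The median fold over all tested genes lay between -0.52 and -0.36 where AT or BL was set against BM, SPL or NBM, so a positive fold there stands against a table that is shifted downward as a whole.

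Of the 9 members, 6 were called in at least 1 of the 10 comparisons. Of 84 folds that were tested, 26 were called. Cebpb and Gfi1b were called in 6 comparisons each, Cebpe, Irf8 and Id2 in 4 each and Gfi1 in 2, whereas Cebpa, Cebpg and Cebpd were called in none. The comparisons share their groups, so these calls are not independent of one another. When the 5 groups were ordered by level for each gene, 4 of 36 neighbouring pairs were called, and these were also the 4 whose bounds did not overlap: AT over BM for Cebpb and for Cebpe, NBM over BL for Irf8, and BL over NBM for Id2.

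Read against the share of all tested genes called, the authors' deposited tables called 4 of 9 members tested in AT against BM, 2 higher and 2 lower, where 22.8% of all tested genes were called, 7.24% higher and 15.5% lower. In AT against SPL 2 members were higher and 2 lower of 9 (all genes 25.1%, 7.20% higher and 17.9% lower), and in AT against BL 1 was higher and 1 lower of 9 (6.52%, 4.01% higher and 2.51% lower). In BL against BM 2 of 8 were higher and 0 lower (33.3%, 10.5% higher and 22.8% lower), and in BL against SPL 2 were higher and 1 lower of 8 (33.3%, 10.2% higher and 23.1% lower). Against NBM, BM had 1 member higher and 1 lower of 8 (16.0%, 8.17% higher and 7.85% lower), and SPL likewise 1 higher and 1 lower of 8 (12.6%, 6.37% higher and 6.19% lower). BL had 3 higher and 1 lower of 8 against NBM (34.4%, 11.5% higher and 22.9% lower), and AT had 2 higher and 1 lower of 9 (23.4%, 7.94% higher and 15.5% lower). These counts of members are small, and no test of the list was made.

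**Figure D1:**
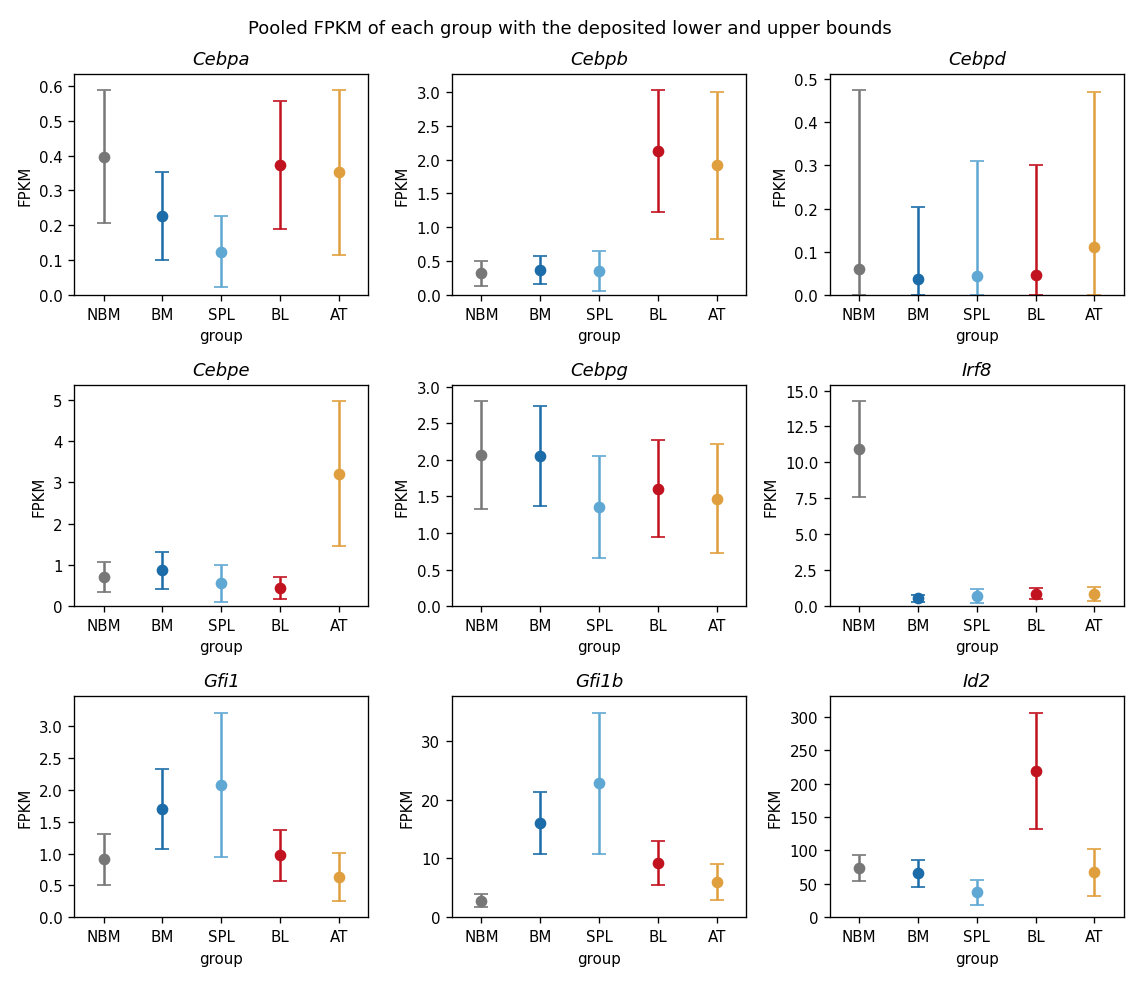
Pooled FPKM (linear axis, a separate scale per gene) of the 9 genes in the 5 groups, each of 3 libraries; points are the authors' pooled values and bars run from the deposited lower to the upper bound. Irf8 stands at 10.9 in NBM and below 1 in the 4 leukemic groups, Cebpb is high in BL and AT, Cebpe in AT, Gfi1b in BM and SPL and Id2 in BL.

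Irf8 was the member with the widest range. Its FPKM was 10.9 (7.59 to 14.2) in NBM, 0.544 (0.298 to 0.791) in BM, 0.710 (0.243 to 1.18) in SPL, 0.863 (0.465 to 1.26) in BL and 0.838 (0.359 to 1.32) in AT. NBM stood far above the other groups, and the bounds of the 4 leukemic groups overlapped one another. In the authors' deposited tables Irf8 fell by 4.33 ± 0.39 on the log2 scale in BM against NBM (q listed as 0), which is 20.1-fold. It fell by 3.94 ± 0.52 in SPL against NBM (authors' deposited q = 7.50e-12), by 3.70 ± 0.47 in AT against NBM (q = 5.02e-13) and by 3.66 ± 0.40 in BL against NBM (q listed as 0). Between the leukemic sites its largest fold in the authors' deposited tables was 0.67 in BL against BM, with a 95% interval from -0.25 to 1.58 and q = 0.354. The estimated count behind the value was 2247 in NBM and between 55.7 (SPL) and 202 (AT) in the leukemic groups. An annotated gene on the same strand, Gm20388, overlaps Irf8 at chr8:120736376-120756692 (mm10), and reads shared with it cannot be separated here.

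Genes known to depend on IRF8 in monocytes and dendritic cells were lower in leukemic cells as well. Of the 14 genes on that list, 12 fell and 0 rose in the authors' deposited table of BM against NBM, where the median fold of the list was -2.81 beside -0.03 over all tested genes and 16.0% of all tested genes were called. In SPL against NBM 10 fell and 0 rose (list median -2.29, all genes 0.11, background 12.6%). In AT against NBM 8 fell and 0 rose (list median -2.33, all genes -0.46, background 23.4%), and in BL against NBM 8 fell and 2, Csf1r and Cx3cr1, rose (list median -2.01, all genes -0.36, background 34.4%). Ly86, a partner of a Toll-like receptor homologue, had an FPKM of 54.1 in NBM, 3.11 in BM, 5.07 in SPL, 13.5 in BL and 6.54 in AT. Ciita, the master activator of MHC class II genes, had 7.70 in NBM, 0.723 in BM, 1.05 in SPL, 0.450 in BL and 0.0608 in AT. The lectin gene Cd209a of dendritic cells had 4.61 in NBM and no more than 0.226 in any leukemic group.

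The list did not move as a block between the leukemic sites. Csf1r, the receptor for the macrophage growth factor CSF-1, fell by 2.73 ± 0.30 on the log2 scale in BM against NBM and rose by 4.004 ± 0.415 in BL against BM in the authors' deposited tables (q listed as 0 for both). Its FPKM was 22.4 in NBM, 3.38 in BM, 5.02 in SPL, 54.2 in BL and 22.9 in AT, so BL and AT reached or passed the level of NBM while Irf8 did not. In BL against BM 5 of the 14 genes rose and 0 fell (list median 1.18, all genes -0.37, background 33.3%), Itgax by 2.54 ± 0.40 (q = 1.38e-08) and Cx3cr1 by 2.46 ± 0.45 (q = 1.57e-06) in the authors' deposited table. In BL against SPL 6 rose and 0 fell (background 33.3%), in AT against BM 3 rose and 2 fell (22.8%), in AT against SPL 2 rose and 1 fell (25.1%), and in SPL against BM 1 rose and 2 fell (2.69%). In AT against BL (background 6.52%) 3 of 14 fell and 0 rose, namely Ciita, Ccr2 and Cx3cr1, the last a monocyte chemokine receptor gene with a fold of -2.501 ± 0.570 (authors' deposited q = 0.000194).

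Markers of other cell types moved with Irf8. The summed FPKM of 8 genes listed as dendritic cell markers was 26.5 in NBM, 3.19 in BM, 2.87 in SPL, 6.49 in BL and 3.83 in AT. An FPKM of 1 or more was reached by 5 of them in NBM and by between 0 and 2 in the leukemic groups. Of these 8 genes, 6 are also on the IRF8 list. Klrk1, which counts among the 5 in NBM, is rather a receptor gene of NK and T cells. It had 4.24 in NBM and no more than 0.245 in any leukemic group. Zbtb46, which defines classical dendritic cells, was at 0.294 in NBM and under 3 estimated counts in BM. The summed FPKM of 10 T and NK cell markers was 55.8 in NBM and between 8.38 and 14.9 in the leukemic groups. The part of these cells in the Irf8 result was not tested, and fewer cells of a type and less RNA per cell cannot be told apart in bulk libraries.

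Factors that act with IRF8 differed in how they followed it. Batf3, the partner of IRF8 in classical dendritic cells, had an FPKM of 3.25 in NBM, 0.494 in BM, 0.149 in SPL, 0.949 in BL and 0.459 in AT, and it fell in all 4 leukemic groups against NBM (BM against NBM -2.72 ± 0.57, q = 3.94e-05 in the authors' deposited table). Irf4, the closest relative of Irf8, had 2.39 in NBM, 0.259 in BM, 0.330 in SPL, 0.526 in BL and 0.224 in AT. It fell by 3.21 ± 0.42 in BM against NBM (q = 2.97e-12) on the log2 scale in the authors' deposited table, and its fold in AT against NBM was -3.42 ± 0.52 (q = 3.67e-09). Klf4, which acts downstream of IRF8 in monocytes, had another pattern: 3.24 in NBM, 1.02 in BM, 0.644 in SPL, 6.26 in BL and 4.79 in AT. It fell by 1.66 ± 0.38 on the log2 scale in BM against NBM (q = 0.000241) and rose by 2.61 ± 0.40 in BL against BM (q = 4.07e-09) and by 2.23 ± 0.47 in AT against BM (q = 4.45e-05) in the authors' deposited tables. Irf5, linked to inflammatory macrophages, likewise had 15.9 in NBM, 5.25 in BM, 4.06 in SPL, 29.5 in BL and 15.7 in AT.

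Gfi1b was the member that rose most. Its FPKM was 2.83 (1.73 to 3.94) in NBM, 16.0 (10.7 to 21.3) in BM, 22.7 (10.7 to 34.8) in SPL, 9.26 (5.56 to 13.0) in BL and 6.01 (2.92 to 9.10) in AT. NBM was lowest and its bounds overlapped those of AT alone. In the authors' deposited tables Gfi1b rose by 3.00 ± 0.47 in SPL against NBM (q = 1.59e-08), by 2.496 ± 0.37 in BM against NBM (q = 1.18e-09) and by 1.71 ± 0.40 in BL against NBM (q = 0.000339), the first of which is 8.02-fold. The fold of 1.09 ± 0.47 in AT against NBM missed the threshold in the authors' deposited table (q = 0.0798). It passed when folds were centred on the median of all tested genes (1.54, recomputed q = 0.00802) and under both other scalings. The estimated counts lay between 369 (NBM) and 1644 (BM).

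Within the leukemia Gfi1b and Gfi1 were both lowest in AT. Gfi1 had an FPKM of 0.912 (0.513 to 1.31) in NBM, 1.69 (1.06 to 2.32) in BM, 2.08 (0.954 to 3.22) in SPL, 0.972 (0.569 to 1.37) in BL and 0.630 (0.259 to 1.00) in AT. Only the bounds of BM did not overlap those of AT. Gfi1 fell by 1.43 ± 0.50 in AT against BM (q = 0.0261) and by 1.73 ± 0.58 in AT against SPL (q = 0.0180) on the log2 scale in the authors' deposited tables. Gfi1b fell by 1.41 ± 0.44 in AT against BM (q = 0.0103), by 1.92 ± 0.53 in AT against SPL (q = 0.00312) and by 1.30 ± 0.48 in BL against SPL (q = 0.0359) there. Of these 5 calls, 4 were lost, with the direction kept, under each of the 3 other scalings: in AT against BM the recomputed q was 0.137 for Gfi1b and 0.202 for Gfi1 after centring, where the folds were -0.93 and -0.95. The call of Gfi1b in AT against SPL was lost under upper quartile scaling alone (-1.33, recomputed q = 0.0633). Reads of A430072P03Rik, annotated on the other strand, may be counted with Gfi1, since the labels do not say whether strand was used.

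The 2 paralogs did not keep a fixed proportion. Per length, Gfi1b stood at 3.11 times the FPKM of Gfi1 in NBM, at 9.43 times in BM, 10.9 times in SPL, 9.53 times in BL and 9.54 times in AT. On the log2 scale this ratio was 1.64 ± 0.42 (SD from the deposited bounds) in NBM and between 3.24 ± 0.36 (BM) and 3.45 ± 0.55 (SPL) in the leukemic groups. The ratio does not depend on how the groups are scaled, and no test of it is possible from pooled values. The ratio of Irf8 to Gfi1 went the other way, from 12.0 in NBM to 0.321 in BM, 0.341 in SPL, 0.888 in BL and 1.33 in AT.

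**Figure D2:**
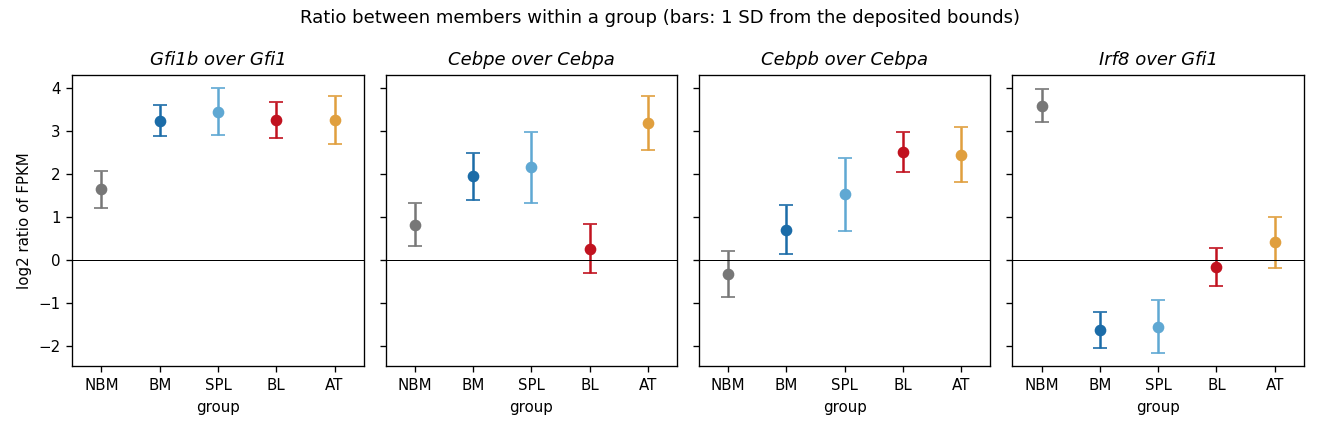
Log2 ratio of the pooled FPKM of pairs of members within each of the 5 groups; points are the ratios and bars 1 SD taken from the deposited bounds. Gfi1b over Gfi1 lies at 1.64 in NBM and between 3.24 and 3.45 in the leukemic groups, Cebpe over Cebpa is highest in AT, Cebpb over Cebpa is highest in BL and AT, and Irf8 over Gfi1 is highest in NBM.

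Factors and targets that work beside GFI1B in erythroid and megakaryocyte progenitors were higher in BM and SPL. Of 12 such genes, 8 rose and 0 fell in BM against NBM (list median 2.28, background 16.0%) and 8 rose and 0 fell in SPL against NBM (list median 2.21, background 12.6%) in the authors' deposited tables. Gata1, the principal erythroid and megakaryocyte factor, had an FPKM of 3.51 in NBM, 25.3 in BM, 49.1 in SPL, 15.6 in BL and 8.24 in AT. The erythropoietin receptor gene Epor had 0.170 in NBM, 1.964 in BM, 2.85 in SPL, 0.268 in BL and 0.277 in AT. Pf4, a platelet chemokine gene, had 7.17 in NBM, 34.9 in BM, 61.1 in SPL, 9.52 in BL and 3.91 in AT.

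The same list was lower in AT and BL than in BM and SPL. In AT against BM the authors' deposited table had 8 of 12 lower and 0 higher (list median -1.62, all genes -0.48, background 22.8%), and 5 fell after centring and under upper quartile scaling. In AT against SPL 6 fell and 0 rose (list median -2.27, all genes -0.52, background 25.1%), in BL against BM 7 fell and 0 rose (list median -1.77, all genes -0.37, background 33.3%), and in BL against SPL 9 fell and 0 rose (list median -1.74, all genes -0.40, background 33.3%). None of the 12 was called in AT against BL (background 6.52%) or in SPL against BM (background 2.69%). Against NBM, BL had 2 higher and 1 lower (background 34.4%) and AT had 0 higher and 1 lower (background 23.4%), and in AT the direction of the count turned under all 3 other scalings. Gata2, a stem cell and mast cell factor, fell by 2.19 ± 0.37 on the log2 scale in BL against BM (authors' deposited q = 1.32e-07). The summed FPKM of 5 erythroid markers was 14.5 in NBM, 75.01 in BM, 246 in SPL, 16.9 in BL and 10.9 in AT, most of it from the carbonic anhydrase gene Car1. That of 6 megakaryocyte markers was 16.4, 69.1, 95.3, 23.5 and 11.2 in the same order. Of the 12 genes on the list, 2 are also erythroid markers and 3 megakaryocyte markers, and the part of such cells in the Gfi1b result was not tested. Of 8 mast cell and basophil markers, 6 rose and 1 fell in BM against NBM (background 16.0%), 0 rose and 5 fell in AT against BM (22.8%), and 1 rose and 5 fell in BL against BM (33.3%) in the authors' deposited tables. Tpsb2, a mast cell tryptase gene, had an FPKM of 0.581 in NBM, 16.1 in BM, 0.514 in SPL, 1.23 in BL and 0.846 in AT. Cpa3, the mast cell carboxypeptidase gene, had 13.8 in NBM, 113 in BM, 36.9 in SPL, 30.4 in BL and 17.5 in AT. Both were highest in BM, whereas Gfi1b was highest in SPL, and Gata2 is on this list too. The part of mast cells and basophils in the Gfi1b result was likewise not tested.

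Calls among 10 cofactors of GFI1 and GFI1B were few and, in BL and AT, mostly near or below the share of all tested genes. In BM against NBM, SPL against NBM and SPL against BM the authors' deposited tables called 0 of the 9 tested, where 16.0%, 12.6% and 2.69% of all tested genes were called. In BL against NBM 1 rose and 3 fell (all genes 34.4%), and in BL against BM and BL against SPL 1 rose and 2 fell (all genes 33.3% in each). The deacetylase genes Hdac1 and Hdac2 fell in all 3 of these, Kdm1a, the histone demethylase gene, fell in BL against NBM, and Pias3 rose in all 3. Hdac1 had an FPKM of 33.2 in NBM, 32.5 in BM, 42.3 in SPL, 17.0 in BL and 17.7 in AT. After centring, all of these falls were lost and 1 gene rose in each of the 3 comparisons. In AT against BM, AT against SPL and AT against NBM 1 rose and 0 fell (all genes 22.8%, 25.1% and 23.4%), and in AT against BL Pias3 fell and 0 rose (6.52%). The riser in AT was Snai1, a repressor that shares the SNAG domain with the GFI proteins, whose FPKM was 0.452 in AT and 0.0635 in BM.

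The C/EBP members divided by site. Cebpb had an FPKM of 0.316 (0.133 to 0.499) in NBM, 0.368 (0.155 to 0.581) in BM, 0.356 (0.0593 to 0.653) in SPL, 2.12 (1.22 to 3.02) in BL and 1.91 (0.829 to 3.00) in AT. The bounds of BL and AT overlapped each other and those of no other group. In the authors' deposited tables Cebpb rose by 2.53 ± 0.52 in BL against BM (q = 2.60e-05), by 2.58 ± 0.68 in BL against SPL (q = 0.00156) and by 2.75 ± 0.52 in BL against NBM (q = 3.62e-06). It rose by 2.38 ± 0.58 in AT against BM (q = 0.000643), by 2.43 ± 0.73 in AT against SPL (q = 0.00693) and by 2.60 ± 0.58 in AT against NBM (q = 0.000153) there. The call held under all 6 alternatives in each of these comparisons. AT against BL was not called, with a fold of -0.15 and a 95% interval from -1.15 to 0.85. The estimated counts were 156 in BL and 188 in AT but between 8.90 and 25.1 in the other groups, and Tmem189 is annotated on the other strand over the same span (chr2:167688915-167690418, mm10).

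Cebpe set AT apart. Its FPKM was 0.701 (0.340 to 1.06) in NBM, 0.870 (0.420 to 1.32) in BM, 0.550 (0.110 to 0.989) in SPL, 0.447 (0.177 to 0.716) in BL and 3.21 (1.45 to 4.96) in AT. The bounds of AT lay above those of each other group, and the other 4 groups overlapped. Cebpe rose by 2.84 ± 0.59 in AT against BL (q = 3.09e-05), by 2.54 ± 0.70 in AT against SPL (q = 0.00276), by 2.19 ± 0.54 in AT against NBM (q = 0.000702) and by 1.88 ± 0.54 in AT against BM (q = 0.00472) in the authors' deposited tables. The first of these is 7.18-fold. Thus BL and AT shared a high Cebpb but differed in Cebpe, in the one comparison, AT against BL, where 6.52% of all tested genes were called. The estimated count of Cebpe was 299.6 in AT and between 15.8 and 52.0 elsewhere.

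**Figure D3:**
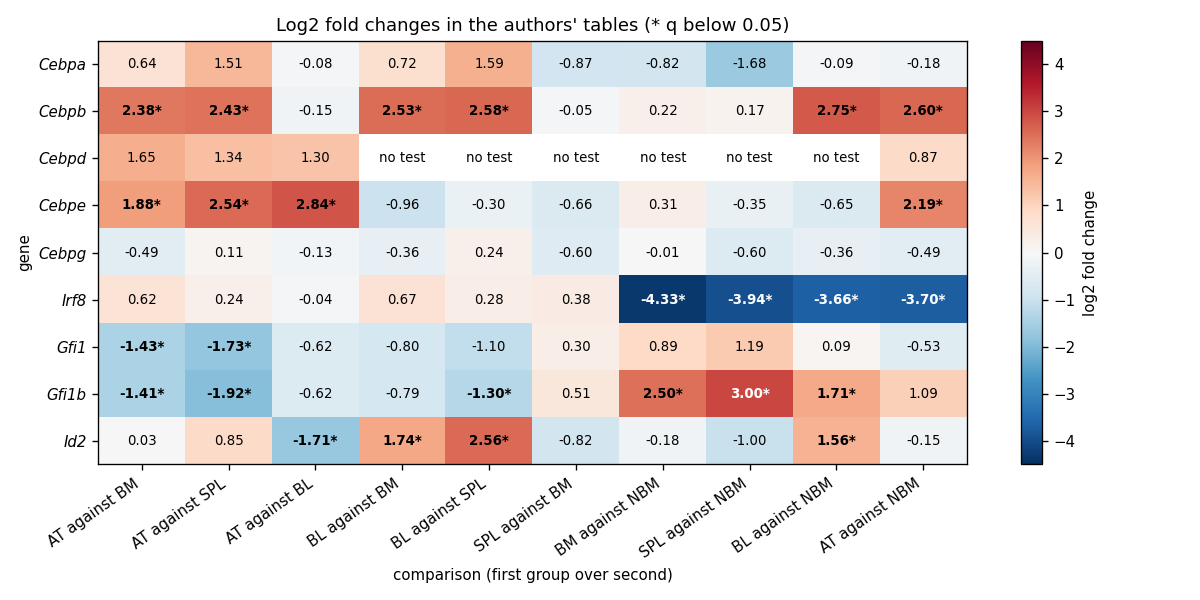
Log2 fold changes of the 9 genes in the 10 comparisons of the authors' deposited tables, first group over second; colour gives the fold, stars mark q below 0.05 and blank cells pairs without a test. The calls of Irf8 all lie in the comparisons with NBM, those of Cebpb in comparisons of BL or AT with BM, SPL or NBM, and those of Cebpe in comparisons with AT.

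Cebpa was low at every site. Its FPKM was 0.397 (0.207 to 0.588) in NBM, 0.226 (0.100026 to 0.352) in BM, 0.124 (0.0214 to 0.226) in SPL, 0.373 (0.190 to 0.557) in BL and 0.352 (0.116 to 0.588) in AT. The bounds of neighbouring groups overlapped throughout, and SPL was lowest with 8.05 estimated counts. No comparison called it in the authors' deposited tables. The folds nearest to the threshold were -1.68 ± 0.69 in SPL against NBM (q = 0.0641), 1.59 ± 0.69 in BL against SPL (q = 0.0865) and 1.51 ± 0.77 in AT against SPL (q = 0.160). The latter 2 passed under each of the 3 other scalings, with recomputed q-values of 0.0270 and 0.0473 after centring, and the first under total count and upper quartile scaling. An antisense gene, Gm45091, overlaps Cebpa at chr7:35119293-35121931 (mm10).

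Cebpg, whose start lies 62.72 kb from that of Cebpa, was the steadiest member. Its FPKM was 2.06 in NBM, 2.06 in BM, 1.36 in SPL, 1.61 in BL and 1.47 in AT, and the bounds of all 5 groups overlapped. Its folds in the authors' deposited tables ran from -0.60 to 0.24, and none was called. Cebpd was at 0.0611 in NBM, 0.0357 in BM, 0.0440 in SPL, 0.0455 in BL and 0.112 in AT, with a lower bound of 0 in each group and between 2.55 and 21.2 estimated counts. The authors' tables tested it in 4 comparisons and called it in none. Its entry spans chr16:15887286-16146833 (mm10), the same span as 2310008H04Rik and much longer than the annotated Cebpd gene, so its level per length is uncertain.

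The proportions among the C/EBP members changed with site. Cebpb stood at 0.795 times the FPKM of Cebpa in NBM, 1.63 times in BM, 2.88 times in SPL, 5.69 times in BL and 5.44 times in AT. Cebpe stood at 1.76 times Cebpa in NBM, 3.85 in BM, 4.44 in SPL, 1.20 in BL and 9.11 in AT. Against Cebpg, its potential dimer partner, Cebpb went from 0.153 times in NBM, 0.179 in BM and 0.262 in SPL to 1.32 times in BL and 1.30 in AT. In BL and AT, Cebpb was thus at a level near that of Cebpg, and below it elsewhere.

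Part of a list of secondary granule genes, classical targets of C/EBPε, was called higher in AT and in BL than in BM and SPL. The list held Camp, Ltf, Ngp, Lcn2, Mmp8, Mmp9, Fcnb, Chi3l3, Cybb, Hp, Ltb4r1 and Itgam. Of 12 such genes, 9 rose and 0 fell in AT against BM in the authors' deposited table (list median 1.83, all genes -0.48, background 22.8%), and 11 rose and 0 fell in AT against SPL (list median 2.17, all genes -0.52, background 25.1%). In BL against BM 6 rose and 0 fell (list median 1.496), and in BL against SPL 7 rose and 0 fell (list median 1.99), each with a background of 33.3%, while Cebpe was not called in either. The risers with the smallest q in BL against BM were Cybb, Itgam, Mmp8 and Hp. Camp went the other way, with a lower FPKM in BL (22.8) than in BM (40.6) and SPL (25.6). Against NBM 0 rose and 4 fell in BM (background 16.0%), 0 rose and 4 fell in SPL (12.6%), and 6 rose and 2 fell in BL (34.4%), and in SPL against BM 0 rose and 3 fell (2.69%). In AT against BL (background 6.52%) 3 rose and 2 fell, the latter being the metalloprotease genes Mmp8 and Mmp9. The risers there were Camp, the cathelicidin gene, Fcnb, a ficolin gene, and Ngp, a neutrophil granule protein gene, which in the authors' deposited table rose by 3.07 ± 0.54 (q = 5.33e-07), 2.47 ± 0.55 (q = 0.000112) and 2.20 ± 0.58 (q = 0.00159).

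These 3 genes are named because they rose in AT against BL, and in the other groups their order was not that of Cebpe. Camp had an FPKM of 67.8 in NBM, 40.6 in BM, 25.6 in SPL, 22.8 in BL and 192 in AT. Ngp had 474 in NBM, 301 in BM, 242 in SPL, 348 in BL and 1605 in AT. Mmp8, the neutrophil collagenase gene on the same list, was instead highest in BL, with 36.5 there and 9.91 in AT, and it fell by 1.88 ± 0.52 on the log2 scale in AT against BL (authors' deposited q = 0.00319). Against NBM, AT had 3 risers (Ltb4r1, Ngp and Camp) and 0 fallers in the authors' deposited table (background 23.4%), and 8 risers after centring. The summed FPKM of 7 mature neutrophil markers was 993 in NBM, 507 in BM, 401 in SPL, 802 in BL and 2094 in AT. Most of the sum in AT came from S100a8 (1331) and S100a9 (707). The other markers were not highest in AT: Cxcr2, Trem1, Mmp8 and Retnlg were highest in BL and Csf3r in NBM. The summed FPKM of 8 stromal markers was likewise highest in AT, at 29.5 against 1.10 to 2.86 elsewhere, most of it from Dcn (21.0). On that list Col1a2 was instead highest in SPL (1.06, with 0.425 in AT). Pdgfrb was highest in BM (2.21) and lowest in AT (0.502). The part of such cells in the Cebpe result was not tested.

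Of 7 primary granule genes, which C/EBPα drives earlier in granulopoiesis, 6 had their lowest FPKM in BL. The exception was Cst7, the cystatin F gene, with 54.0 in NBM, 107 in BM, 103 in SPL, 40.4 in BL and 36.0 in AT. By call, 4 (Mpo, Ms4a3, Cst7 and Ctsg) fell and 0 rose in BL against BM (list median -2.35, all genes -0.37, background 33.3%), 3 (Mpo, Ms4a3 and Cst7) fell and 0 rose in BL against SPL (list median -2.33, background 33.3%) and 3 (Mpo, Ms4a3 and Ctsg) fell and 0 rose in BL against NBM (list median -3.39, background 34.4%) in the authors' deposited tables. Mpo, the myeloperoxidase gene, had an FPKM of 524 in NBM, 107 in BM, 120 in SPL, 6.23 in BL and 113 in AT. It fell by 6.39 ± 0.34 on the log2 scale in BL against NBM (authors' deposited q listed as 0). Ms4a3, a gene of granulocyte and monocyte progenitors, had 76.6 in NBM, 49.2 in BM, 61.5 in SPL, 7.30 in BL and 40.8 in AT. In AT against BL (background 6.52%), 2 of 7 rose and 0 fell, Mpo by 4.19 ± 0.57 (q = 1.77e-11) and Ms4a3 by 2.48 ± 0.49 (q = 1.06e-05) in the authors' deposited table. Elane, the neutrophil elastase gene, had 270 (269.6) in NBM and 6.25 in BL, but its standard error of 2.95 in BL against NBM left it uncalled (authors' deposited q = 0.195). In AT against BM (background 22.8%) and AT against SPL (25.1%) 1 of 7, Cst7, fell and 0 rose. Against NBM 1 rose and 2 fell in BM (16.0%), 0 rose and 1 fell in SPL (12.6%) and 0 rose and 1 fell in AT (23.4%), and none was called in SPL against BM (2.69%).

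**Figure D4:**
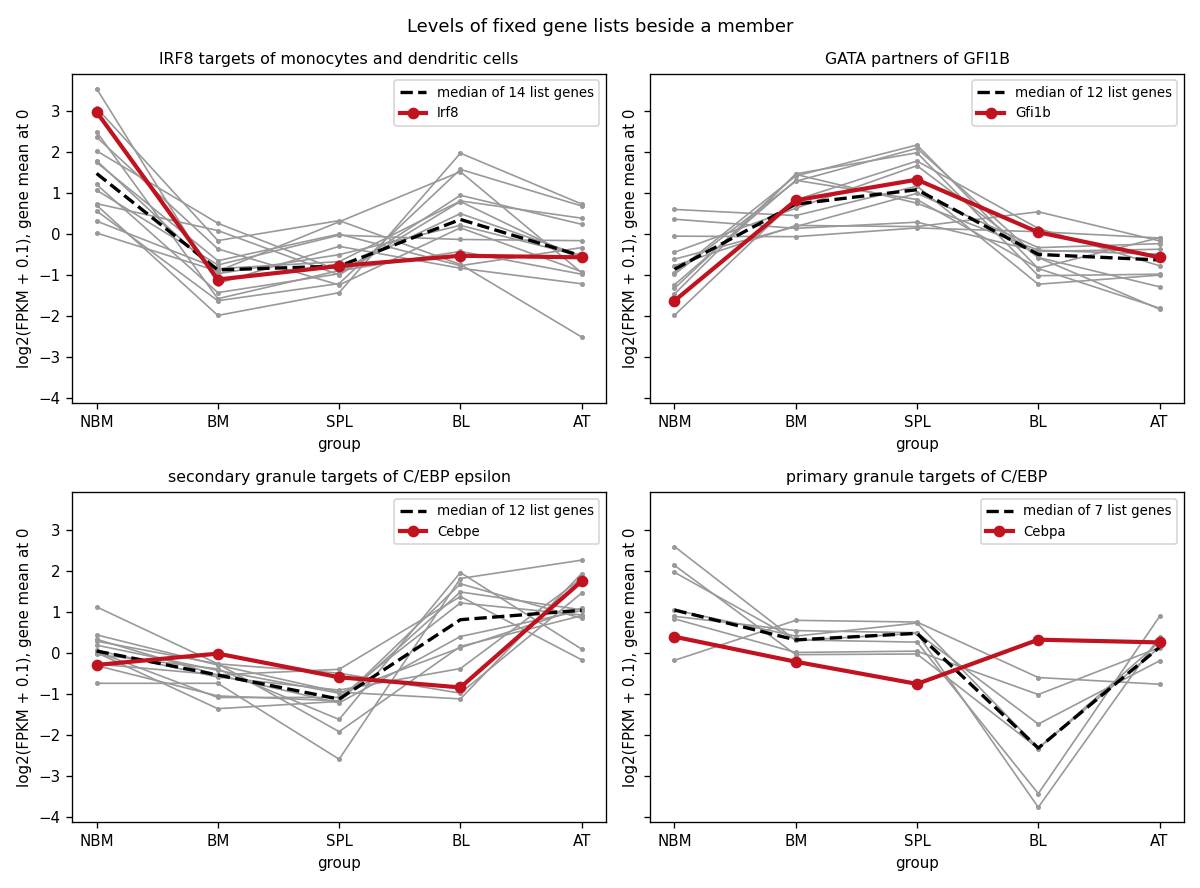
Levels of 4 gene lists beside a member, as log2(FPKM + 0.1) with each gene's mean over the 5 groups set to 0; grey lines are list genes, the dashed line their median and the red line the member. The list medians are highest in NBM for the IRF8 list, in BM and SPL for the GATA list and in BL and AT for the secondary granule list, and lowest in BL for the primary granule list; single genes depart from them.

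Of 12 inflammatory genes known to respond to C/EBPβ and C/EBPδ, Il6, Il1b, Cxcl2, Ptgs2, Tnfaip6 and Ccl3 had their highest FPKM in AT, Ccl5, Il12b and Arg1 in NBM and Saa3 and Nos2 in BL, and Csf3 did not exceed 0.0713. By call, 5 rose and 0 fell in AT against BM (list median 2.61, background 22.8%), 7 rose and 0 fell in AT against SPL (list median 3.56, background 25.1%) and 5 rose and 0 fell in AT against BL (list median 1.18, all genes -0.11, background 6.52%) in the authors' deposited tables. Cebpb was not called in the last of these. Against NBM 6 rose and 2 fell in AT (background 23.4%), 6 rose and 2 fell in BL (34.4%), 3 rose and 3 fell in BM (16.0%) and 0 rose and 4 fell in SPL (12.6%), and Ccl5 and Il12b fell in each of these 4 comparisons. In SPL against BM 0 rose and 3 fell (background 2.69%), and in BL against SPL 5 rose and 0 fell (33.3%). Ccl5, a T cell and macrophage chemokine gene, had an FPKM of 79.5 in NBM, 12.4 in BM, 19.5 in SPL, 23.3 in BL and 15.2 in AT. Cxcl2, a neutrophil chemokine gene, had an FPKM of 4.35 in NBM, 8.64 in BM, 4.92 in SPL, 13.4 in BL and 123 in AT. Il6, the interleukin-6 gene, had 1.95 in NBM, 9.84 in BM, 3.89 in SPL, 11.5 in BL and 61.0 in AT. In BL against BM 2 of 12 rose and 0 fell (background 33.3%), Saa3, an acute phase gene, by 2.24 ± 0.50 (q = 0.000142) and Tnfaip6 by 2.23 ± 0.61 (q = 0.00288) in the authors' deposited table, and 5 rose after centring. The summed FPKM of 10 macrophage markers was 400 (399.6) in NBM, 201 in BM, 208 in SPL, 1408 in BL and 1054 in AT, most of it from the lysozyme gene Lyz2. On that list Mrc1 (2.84, with 0.675 in BL and 0.321 in AT), C1qa, C1qb and C1qc were instead highest in NBM. Of the 10, 6 rose and 2 fell in BL against NBM (background 34.4%) and 3 rose and 3 fell in AT against NBM (23.4%). In BL against BM 7 rose and 0 fell (33.3%), and in AT against BM 6 rose and 0 fell (22.8%). The part of macrophages in the Cebpb result was not tested. The summed FPKM of 9 adipocyte markers was 9.45 in NBM, 7.99 in BM, 8.49 in SPL, 45.2 in BL and 56.8 in AT, of which Fabp4, also expressed by macrophages, gave 31.8 in BL and 46.2 in AT. In AT against BM (background 22.8%) and AT against NBM (23.4%) 3 of 9 rose and 0 fell (Fabp4, Pparg and Cidec), and in BL against BM (33.3%) and BL against NBM (34.4%) 3 rose and 0 fell. Plin1, Lep and Retn were under 3 estimated counts in AT, Adipoq had 3.03 and Cidec 44.5. The part of adipocytes in the results for AT was not tested.

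Of 12 factors that set the amount or the pairing of C/EBP proteins, between 0 and 4 were called in a comparison. In AT against BM 0 were called by the authors' tables (all genes 22.8%), and after centring 2 rose. In AT against SPL Trib1 and Trib3 rose and Trib2 and Batf2 fell (all genes 25.1%), and in AT against BL 2 of the 12 rose and 0 fell (all genes 6.52%). Against NBM 2 rose and 2 fell in BL (all genes 34.4%), 1 rose and 2 fell in SPL (12.6%), 0 rose and 1 fell in BM (16.0%) and 1 rose and 1 fell in AT (23.4%). In BL against BM 1 rose and 1 fell, in BL against SPL 0 rose and 2 fell (all genes 33.3% in each), and in SPL against BM 1 rose and 1 fell (2.69%). Trib2, an adaptor that targets C/EBPα for degradation, had an FPKM of 0.305 in NBM, 0.385 in BM, 1.57 in SPL, 0.261 in BL and 0.257 in AT. Trib2 was highest in SPL, and it rose by 2.37 ± 0.55 in SPL against NBM (q = 0.000284) and by 2.03 ± 0.55 in SPL against BM (q = 0.00245) in the authors' deposited tables. Trib3 had 3.58 in NBM, 5.81 in BM, 1.11 in SPL, 1.64 in BL and 7.27 in AT, and Atf4, a C/EBP partner of the stress response, had 34.3, 38.1, 28.6, 26.1 and 64.7 in the same order. Both rose in AT against BL, by 2.15 ± 0.53 (q = 0.000668) and 1.31 ± 0.48 (q = 0.0338) in the authors' deposited table.

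Id2 was the most abundant member at every site and highest in BL. Its FPKM was 74.2 (54.9 to 93.5) in NBM, 65.7 (45.7 to 85.7) in BM, 37.2 (19.0 to 55.3) in SPL, 219 (132 to 306) in BL and 67.1 (31.5 to 103) in AT. The bounds of BL lay above those of every other group. By the authors' deposited tables Id2 rose by 2.56 ± 0.45 in BL against SPL (q = 6.64e-07), by 1.74 ± 0.36 in BL against BM (q = 3.27e-05) and by 1.56 ± 0.34 in BL against NBM (q = 9.45e-05), and it fell by 1.71 ± 0.48 on the log2 scale in AT against BL (q = 0.00334). The fold of -0.998 ± 0.399 in SPL against NBM missed the threshold in the authors' deposited table (q = 0.0565) and passed under each of the 3 other scalings and under the filter on low values. AT against SPL, at 0.85 ± 0.52 (authors' deposited q = 0.265), also passed under the 3 other scalings.

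The ID relatives of Id2 had patterns of their own. Id3 had an FPKM of 3.66 in NBM, 0.479 in BM, 0.938 in SPL, 3.57 in BL and 7.47 in AT, and in the authors' deposited tables it rose by 3.96 ± 0.63 in AT against BM (q = 2.12e-08) and by 2.90 ± 0.57 in BL against BM (q = 8.48e-06). Id1 had 7.49 in NBM, 10.998 in BM, 8.14 in SPL, 25.8 in BL and 20.4 in AT. The E protein gene Tcf4, a target of ID pairing and a factor of plasmacytoid dendritic cells, had 4.96 in NBM, 2.52 in BM, 3.72 in SPL, 1.81 in BL and 0.930 in AT. Of the 7 ID and E protein genes other than Id2, Id1 and Id3 rose in BL against BM (background 33.3%), Id1 and Id3 rose and Tcf3 fell in BL against SPL (33.3%), and Id3 rose and Tcf4 fell in AT against BM (22.8%) in the authors' deposited tables. In AT against SPL 1 rose and 1 fell (25.1%), against NBM 1 rose and 2 fell in BM (16.0%), 0 rose and 1 fell in SPL (12.6%), 1 rose and 2 fell in BL (34.4%) and 1 rose and 1 fell in AT (23.4%), and none was called in AT against BL (6.52%) or SPL against BM (2.69%).

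No member was called between SPL and BM. In the authors' deposited table of SPL against BM, Cuffdiff called 0 of the 8 members tested, where 2.69% of all tested genes were called, 1.19% higher and 1.50% lower. At an unadjusted p below 0.05 there was 1, Id2, with a fold of -0.82 and a 95% interval from -1.64 to -0.01. The 6 alternatives also called 0. The intervals are wide: that of Cebpa ran from -2.28 to 0.54 and that of Gfi1b from -0.38 to 1.39.

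The genes whose pattern over the 5 groups was most like that of a member were named for the 5 members with a log2 range of 2 or more, by the root mean square difference of centred log2(FPKM + 0.1) among 5978 genes. For Cebpb they were Lpl (0.147), the lipoprotein lipase gene, Cd300lf (0.167) and Slc16a3 (0.171). For Cebpe they were Tnf (0.211), Gadd45g (0.292) and Tnfsf9 (0.313). For Irf8 they were the chemokine receptor gene Cxcr4 (0.372) and the MHC class II genes H2-Ab1 (0.419) and H2-Eb1 (0.436). For Gfi1b they were Serpina3a (0.101), Serpina3j (0.103) and Serpina3m (0.106), near-identical paralogs whose reads may be shared. For Id2 they were Elmo2 (0.181), Cd244 (0.182) and Tmem71 (0.224). With 5 pooled points per profile this is a description of likeness only.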

How the data were processed

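RNA was extracted with a Qiagen RNeasy Plus kit and libraries were made with low-input SMARTer and Nextera XT chemistry, per the labels. Reads were trimmed with Trimmomatic 0.32 and quantified with Cufflinks 2.0.2 and Cuffdiff on mm10, per the submitters' processing notes. The aligner, the gene annotation and the Cuffdiff version were not given in the sources used here. Per the file headers, each gene has 1 pooled FPKM per group with its bounds, and an estimated count. The deposited pairwise tables give a log2 fold change with its p-value and q-value. Adjusting all 127922 p-values together by Benjamini and Hochberg's method returned the deposited q to within 1.70e-06.

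From these, the standard error of a fold (fold over test statistic), 95% intervals, ratios and list counts were computed with Python 3.11.15, pandas 2.3.3, numpy 2.4.6 and scipy 1.17.1. Values of single libraries were not used here, so no replicate test was made and the Cuffdiff test stands as the main one. The retest under other scalings was tested on simulated data. The alternatives were centring on the median fold, total count scaling, upper quartile scaling, adjustment within a comparison, a filter at an FPKM of 1 and q below 0.01.

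The members and the 22 gene lists (10 pathway and 12 marker lists, 214 of 218 symbols found) were chosen with earlier results of these data known. The genes named were the 9 members, up to 4 called genes per list and comparison with the smallest q-value, and the 3 genes most alike in pattern per member, predicted genes skipped. Other list genes named, such as Kdm1a, Hdac1, Elane and the levels of a gene in further groups, were chosen after their values were seen. No fold is given against a group at 3 or fewer estimated counts.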

Additional observations from a re-analysis of the deposited data

How the results depend on the processing

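Of the 26 calls, 22 were kept after centring and under total count scaling, 21 under upper quartile scaling, 22 at q below 0.01 and 26 under both adjustment within the comparison and the filter at an FPKM of 1. The 3 scalings added 5, 6 and 6 calls in that order. Members called in AT against BM fell from 4 to 2 after centring, under both other scalings and at q below 0.01, and the losses were those of Gfi1 and Gfi1b. In SPL against NBM 4 members in place of 2 were called under total count and upper quartile scaling. Of the 15 genes most like a member in pattern, 8 remained with a pseudocount of 1. The cause was not tested.

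Folds that changed sign were all uncalled. After centring these were, in AT against BL, Cebpa 0.0206 and Irf8 0.0630; in BL against BM, Cebpg 0.00924; in BL against SPL, Cebpe 0.10; in BM against NBM, Cebpg 0.0213; in BL against NBM, Cebpa 0.27 and Cebpg 0.00165; and in AT against NBM, Cebpa 0.28 and Id2 0.31. Under total count scaling they were, in AT against BL, Cebpa 0.16, Cebpb 0.0922, Cebpg 0.11 and Irf8 0.20, in SPL against NBM, Cebpb -0.10, and in AT against NBM, Cebpa 0.0817 and Id2 0.11. Under upper quartile scaling they were Irf8 0.0391 in AT against BL, Cebpg 0.0173 in BL against BM, Cebpe 0.20 in BL against SPL, Cebpa 0.27 in BL against NBM, and Cebpa 0.27 and Id2 0.30 in AT against NBM. The balance of risers and fallers in a list turned in the following cases. After centring, the partner factors had 12 called (8 higher) in BL against NBM and 5 (3 higher) in AT against NBM, with the same counts under upper quartile scaling. The ID and E protein list had 3 (2 higher) in BL against NBM under both. The C/EBP pairing list had 4 (3 higher) in BL against SPL under all 3 scalings and 5 (3 higher) with adjustment within the comparison. The GFI cofactors had 1, a riser, after centring in BL against BM, SPL and NBM, 2 risers under upper quartile scaling in the first 2 and 1 in the third, and 1 riser under total count scaling in BL against SPL and in AT against BL. The GATA list had 2, 3 and 2 called (2 higher in each) in AT against NBM under the 3 scalings. The receptors had 4 (3 higher) in AT against NBM after centring and under upper quartile scaling, and 3 (1 higher) in BL against NBM at q below 0.01. In no other list count given here did the balance turn.

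No paired analysis was possible because the deposited columns pool the 3 libraries of a group, and fits without 1 library were not run. SPL had the fewest estimated counts, 8.96e+06, and the median standard error over all tested genes was highest in AT against SPL, at 0.585. A member not called is not shown to be unchanged.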

Other observations

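Receptors that act upstream of the C/EBP factors, listed with the signal transducers Stat3, Stat5a and Stat5b, are given beside the share of all tested genes called. Of 12 such genes, 4 rose and 1 fell in AT against BM (all genes 22.8%) and in AT against SPL (25.1%), 3 rose and 0 fell in BL against BM (33.3%) and 6 rose and 0 fell in BL against SPL (33.3%) in the authors' deposited tables. Il6ra, the interleukin-6 receptor gene, had an FPKM of 0.574 in NBM, 0.0776 in BM, 0.121 in SPL, 1.40 in BL and 0.836 in AT. Csf2ra, the alpha chain gene of the GM-CSF receptor, had 1.12 in NBM, 0.586 in BM, 0.448 in SPL, 2.77 in BL and 3.25 in AT. In BM against NBM 4 of the 12 fell and 0 rose (all genes 16.0%), in SPL against NBM 5 fell and 0 rose (12.6%), in BL against NBM 5 rose and 3 fell (34.4%) and in AT against NBM 1 rose and 4 fell (23.4%). None was called in AT against BL (6.52%) or SPL against BM (2.69%). Csf3r, the G-CSF receptor gene, had 8.76 in NBM, 2.15 in BM, 1.19 in SPL, 4.23 in BL and 3.24 in AT, and Il6st, the shared signalling chain of the interleukin-6 family, had 2.19, 0.242, 0.205, 0.499 and 0.714 in the same order.

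Among 22 further myeloid transcription factors, 11 rose and 3 fell in BL against BM (all genes 33.3%) and 9 rose and 2 fell in AT against BM (22.8%) in the authors' deposited tables, whereas 0 rose and 7 fell in BM against NBM (16.0%) and 0 rose and 6 fell in SPL against NBM (12.6%). In AT against SPL 9 rose and 1 fell (25.1%), in BL against SPL 9 rose and 2 fell (33.3%), in AT against BL 2 rose and 1 fell (6.52%), in SPL against BM 0 rose and 3 fell (2.69%), in BL against NBM 3 rose and 5 fell (34.4%) and in AT against NBM 2 rose and 4 fell (23.4%). Myb, a progenitor factor, had an FPKM of 2.78 in NBM, 2.51 in BM, 2.59 in SPL, 0.255 in BL and 0.775 in AT, and it fell by 3.30 ± 0.54 on the log2 scale in BL against BM (authors' deposited q = 4.48e-08). Rara, the retinoic acid receptor alpha gene, had 0.490 in NBM, 0.455 in BM, 0.530 in SPL, 3.50 in BL and 2.21 in AT. Junb had 0.425 in NBM, 0.360 in BM, 0.333 in SPL, 0.907 in BL and 2.12 in AT, and it rose by 2.56 ± 0.62 in AT against BM (authors' deposited q = 0.000530).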
